A study of Mus musculus with 8 samples.

Results

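Loratadine alone was compared with vehicle in tumors of 105K cells, a mouse kidney cystadenoma line that lacks Tsc2 and was used as a model of lymphangioleiomyomatosis (LAM). The comparison rests on the treatment label of each library and holds 4 of the 8 libraries of the series, 2 from tumors of loratadine-treated mice (B3R and F3R) and 2 from tumors of vehicle-treated mice (B1L and F5L). The first letter of a code was taken as the cage and the last as the side of the body. On this reading cages B and F each gave 1 loratadine tumor and 1 vehicle tumor. Both loratadine tumors grew on the right side and both vehicle tumors on the left, so drug and side cannot be told apart. The mice were age-matched female C57BL/6J animals with an intact immune system, and the cells were implanted under the skin. Loratadine was given at 25 mg/kg/day in carboxymethylcellulose, and the vehicle was carboxymethylcellulose, to which the methods of the study add Tween-80 and an intraperitoneal route. The cage was read from the code, and the methods of the study do not mention it. Those methods start single-drug treatment at smaller tumor volumes than in the rapamycin arms. The methods of the study describe loratadine as oral and given every other day, whereas the sample labels describe it as intraperitoneal. In the other 4 tumors, rapamycin at 0.25 mg/kg/day was given with the same dose of loratadine (A3L and C1R) or alone (D1L and G3L). All tumors share the line, the strain and the lack of Tsc2, and each condition is represented by 2 tumors of a single line.

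Loratadine is a second-generation antihistamine that keeps the H1 histamine receptor in its inactive state. Histamine is made from histidine by histidine decarboxylase, stored mainly in mast cells, and broken down by methylation and by oxidation, steps that monoamine oxidases and aldehyde dehydrogenases complete. Loss of TSC2 releases mTORC1, a kinase complex that promotes protein, lipid and nucleotide synthesis, and the transcription factors HIF1α, ATF4 and SREBP are among its known effectors. Genes controlled by these factors were described beside those of histamine metabolism, epithelial and mesenchymal identity and the extracellular matrix. All gene lists were chosen with earlier results of these data known, so their counts beside those of all genes are a description and not a test.

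Levels were deposited as TPM, the share of a gene's transcripts among all transcripts after correction for transcript length. Such shares no longer hold read numbers, and how deeply each tumor was sequenced is unknown. Between 13757 and 13775 genes reached 1 TPM in the loratadine tumors and between 13251 and 13274 in the vehicle tumors, and mitochondrial transcripts held 5.78 to 7.41% of the TPM with loratadine and 7.51 to 7.88% with vehicle. The Pearson correlation of log2(TPM + 1) was 0.967 between the loratadine tumors and 0.966 between the vehicle tumors, against 0.950 between drug and vehicle within cage B and 0.945 within cage F. The labels call the tissue a mammary tumor. Of 12 markers of mammary epithelium, 7 passed the filter on low values. Among them were Krt8 and Gata3, which other epithelia express as well, with Gata3 at 36.1 and 46.4 TPM in the loratadine tumors and 41.5 and 30.3 TPM in the vehicle tumors. The milk protein genes were low, with Csn2 and Wap below 0.1 TPM in every tumor and Lalba at up to 0.264 TPM, in F3R. The renal transcription factor Pax8 was at 23.9 and 32.2 TPM in the loratadine tumors and at 36.0 and 45.6 TPM in the vehicle tumors. Tsc2 transcripts were present in every tumor, at 52.7 and 53.8 TPM with loratadine and 42.4 and 42.0 TPM with vehicle. The table counts transcripts of the whole gene, so this level does not test the loss of the protein.

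The test was limma's moderated linear model of log2(TPM + 1). It covered 15095 genes that reached 1 TPM in at least 2 of the 8 tumors, and the spread was taken from all 4 treatments. Fold changes on this scale understate those of genes with low TPM, and errors given beside them are standard errors. Of the 15095 genes, 3 passed an adjusted p of 0.05 (0.0199%), 1 higher (0.00662%) and 2 lower (0.0132%) in the loratadine tumors. A further 9 genes reached an adjusted p of 0.1. At an unadjusted p of 0.05 there were 1313 genes with higher levels (8.7%) and 513 with lower levels (3.4%). Groups that did not overlap, with both loratadine tumors beyond both vehicle tumors, were found for 4987 genes in the higher direction (33.0%) and 2250 in the lower (14.9%). These shares depended on the scaling and became 23.5 and 23.3% when libraries were scaled by the median of ratios. The middle of the log2 fold changes lay at 0.12 as deposited and at 0.00 after this scaling. The medians of gene groups below are given as deposited and stand against this 0.12. An exact permutation test of 2 tumors against 2 cannot go below p = 0.333, so single genes were tested in the fit over all genes only.

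Ptgds, which encodes the lipocalin-type prostaglandin D synthase (ENSMUSG00000015090, chromosome 2 from 25322229 to 25325566, minus strand, NCBIM37), was the gene that rose. Its levels were 69.7 and 61.7 TPM in the loratadine tumors and 2.89 and 4.33 TPM in the vehicle tumors. The log2 fold change was 3.87 ± 0.32 (limma adjusted p = 0.027), with 4.18 within cage B and 3.55 within cage F. Both genes that fell are predicted genes. Gm49450 was listed at 0 in both loratadine tumors and at 55.1 and 77.3 TPM in the vehicle tumors (limma adjusted p = 0.0012), and it was at 0 in all 4 tumors with rapamycin. It passed the filter on low values only through the vehicle tumors, where it is high, so its p is not support for a difference. Gm20431, on chromosome 2, was at 0.234 TPM in B3R and at less than 0.1 TPM in F3R, against 9.37 and 11 TPM in the vehicle tumors (limma adjusted p = 0.027). It too passed the filter only through the vehicle tumors. Of the 3 genes Ptgds alone passed the filter through both groups, but its adjusted p was computed with both predicted genes ranked ahead of it. Without predicted genes and pseudogenes 0 of 13251 genes passed in limma, so the call of Ptgds is not independent of them. With the cage as a block, no gene passed in limma with its 1 residual degree of freedom, while 1845 of 13805 genes were under an unadjusted p of 0.05, and the adjusted p of Ptgds was 0.067. The call of Ptgds was also lost when any 1 of B1L, F5L, B3R, F3R or G3L was left out (adjusted p of 0.35, 0.19, 0.16, 0.20 and 0.052), with the fold change between 3.64 and 4.10 on the log2 scale.

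The 12 annotated genes with higher levels that ranked first by p started with Ptgds. They were taken from 245 genes whose groups did not overlap. These were at least 1 log2 unit higher in each cage, with a mean of at least 5 TPM. Nrep, a neuronal and wound-associated protein, was at 220.0 and 223 TPM with loratadine and 36.6 and 38.5 TPM with vehicle (2.53 ± 0.27, limma adjusted p = 0.087). Within the cages its differences were 2.56 and 2.51, almost equal. Gfra4, the receptor subunit for persephin, was at 10.2 and 7.72 TPM against 0.648 and 1.15 TPM in vehicle tumors (2.39 ± 0.29, limma adjusted p = 0.096). Mgp, the matrix Gla protein that inhibits calcification, was at 171 and 459 TPM with loratadine and 31.2 and 38.5 TPM with vehicle (2.98 ± 0.45). For Mgp, F3R stood above B3R. Fstl1, a secreted glycoprotein that binds BMP ligands, was at 152 and 191 TPM with loratadine and 38.6 and 45.0 TPM with vehicle (2.0 ± 0.29). Igfbp2, a carrier of insulin-like growth factors, was at 25.5 and 58.0 TPM against 6.59 and 4.24 TPM in vehicle tumors. P3h4, which takes part in collagen lysine hydroxylation, was at 11 and 20.1 TPM against 1.10 and 1.35 TPM in vehicle tumors. That the drug-treated tumors lay above the vehicle tumors was set by the rule of choice. None of these genes other than Ptgds passed the adjusted threshold. Hp, haptoglobin, was at 110.0 and 94.3 TPM with loratadine and 2.49 and 0.215 TPM with vehicle (5.64 ± 0.87). Cox8b, a cytochrome oxidase subunit of muscle and brown fat, was at 9.36 and 3.75 TPM with loratadine and was listed at 0 in both vehicle tumors. Outside the loratadine tumors it reached 1 TPM in A3L alone. It thus passed the filter on low values only through the group where it is high, and its rank by p is not support for a difference. The smaller differences of the 12 were those of Nme3, a nucleoside diphosphate kinase (1.84 ± 0.24), Sertad4 (1.72 ± 0.24) and Osgep, an enzyme of tRNA modification (1.18 ± 0.19).

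In the lower direction 66 annotated genes met the same rule, and Cth had the smallest p among them. It encodes cystathionine gamma-lyase, which makes cysteine from cystathionine, and was at 3.06 and 2.54 TPM with loratadine and 91.9 and 35.7 TPM with vehicle (-3.94 ± 0.46, limma adjusted p = 0.096). Asns, asparagine synthetase, was at 103 and 103 TPM against 259.9 and 243 TPM in vehicle tumors (-1.28 ± 0.15, limma adjusted p = 0.096). Gsta4, a glutathione transferase that detoxifies hydroxynonenal, was at 73.2 and 80.5 TPM against 259 and 218 TPM in vehicle tumors (-1.61 ± 0.20, limma adjusted p = 0.096). For all 3 genes the loratadine tumors were close to each other. Cdsn, the corneodesmosin of cornified epithelia, was at 6.35 and 10.01 TPM with loratadine and 39.8 and 55.9 TPM with vehicle. Sh2d6, an SH2-domain adapter, was at 2.46 and 2.21 TPM with loratadine and 17.3 and 36.6 TPM with vehicle. Acsbg1, an acyl-CoA synthetase, was at 1.92 and 2.06 TPM with loratadine and 35.6 and 13.5 TPM with vehicle. As in the higher direction, the lack of overlap in these genes was set by the rule of choice. Dusp4, a phosphatase that acts on MAP kinases, was at 72.1 and 62.3 TPM with loratadine and 178 and 134 TPM with vehicle. Car12, a membrane carbonic anhydrase, was at 3.16 and 1.44 TPM with loratadine and 22.4 and 11.6 TPM with vehicle. The remaining 4 of the 12, Try5, Dnajb13, Speer4b and Elfn1, were at or below 3.90 TPM in both loratadine tumors. Try5 passed the filter on low values only through the vehicle tumors, where it is high, so its rank by p is not support for a difference. Try5, Speer4b and the Gsta genes belong to families with near-identical copies, so reads may have been divided among them.

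**Figure D1:**
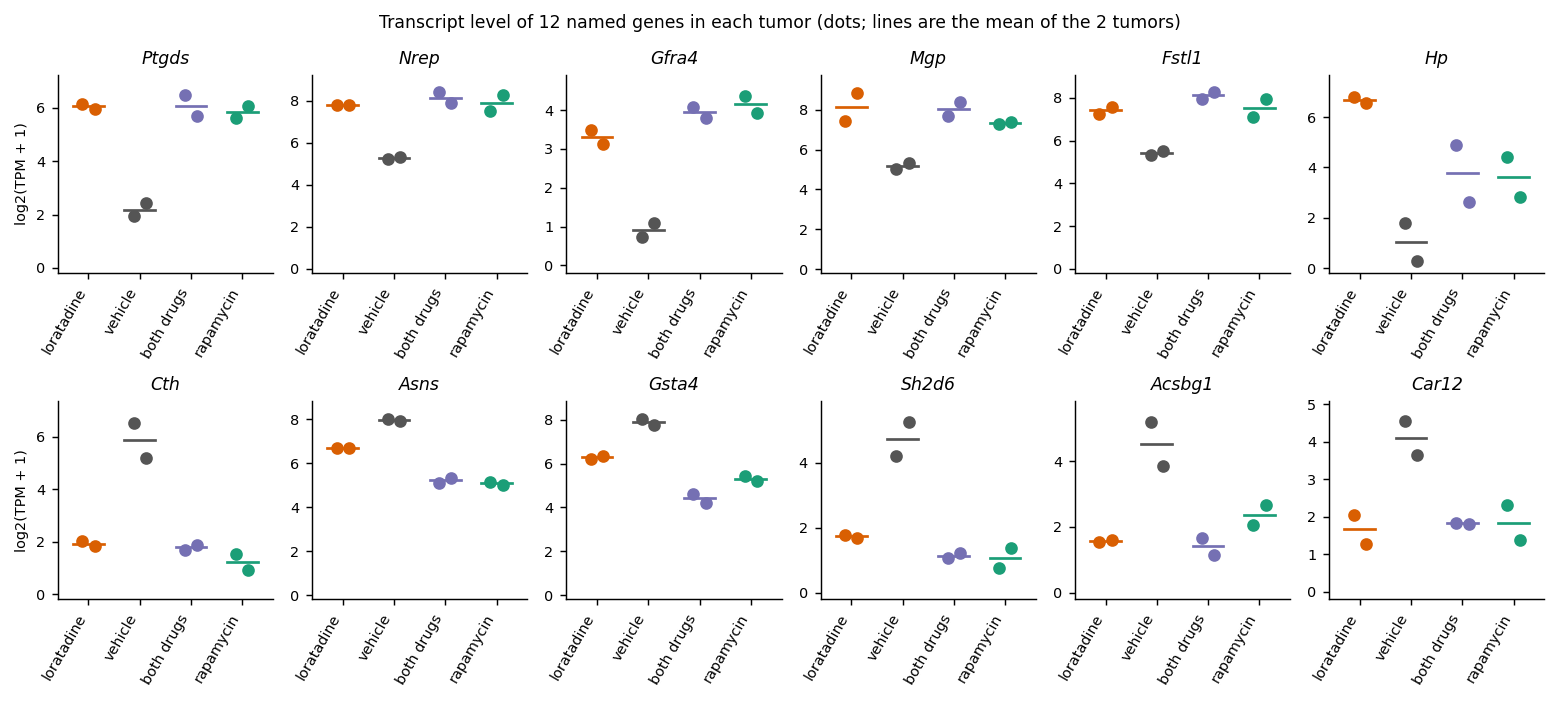
Levels of 12 named genes as log2(TPM + 1) in each tumor, with a dot per tumor and a line at the mean of the 2 tumors of a treatment. By the rule of choice the loratadine and vehicle groups do not overlap in any of them. The loratadine mean lies above the vehicle mean by 2.0 to 5.64 in the 6 genes of the top row. It lies below by 1.28 to 3.94 in the 6 genes of the bottom row.

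The differences were taken within each cage as well. Across the 15095 genes, which are not independent replicates, the difference in cage B and that in cage F had the same sign for 62.2%, with a Pearson correlation of 0.35. At least 1 log2 unit separated drug from vehicle in the same direction in both cages for 372 genes with higher levels and 124 with lower levels.

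**Figure D2:**
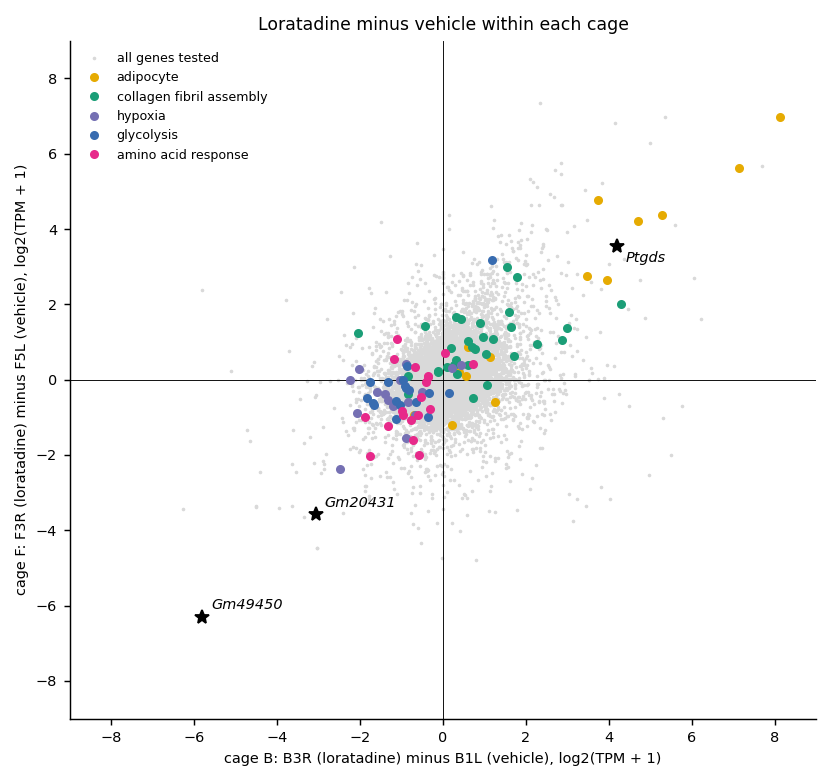
Difference between loratadine and vehicle in log2(TPM + 1) within cage B (x axis) and within cage F (y axis), with all tested genes in grey, 5 gene groups in color and the 3 genes past the threshold as stars. Adipocyte markers spread to the upper right, up to 8.12 in cage B for Cfd, and most genes of hypoxia, glycolysis and the amino acid response lie at the lower left.

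Hypoxia-response and glycolytic genes had lower levels in the loratadine tumors than in the vehicle tumors. Hypoxia-inducible factors bind promoters and enhancers at elements with the core ACGTG when oxygen is low or mTORC1 is active, and their targets include most enzymes that convert glucose to lactate. Of 16 hypoxia-response genes, all of which were tested, 11 did not overlap in the lower direction and 0 in the higher, against 14.9 and 33.0% of all genes. None passed the adjusted threshold in limma, and 8 were under an unadjusted p of 0.05, all of them lower. The median log2 fold change was -0.89, with -1.12 in cage B and -0.37 in cage F. Pdk1, a kinase that inhibits pyruvate dehydrogenase, was at 40.3 and 57.5 TPM with loratadine and 94.6 and 94.1 TPM with vehicle (-0.96 ± 0.23). Ddit4, which encodes REDD1, an inhibitor of mTORC1, was at 183 and 116 TPM with loratadine and 342 and 343 TPM with vehicle (-1.23 ± 0.30). Bnip3, a receptor of mitophagy, was at 171 and 344 TPM with loratadine and 523 and 435 TPM with vehicle. For Pdk1 and Ddit4 the vehicle tumors lay close together, with both loratadine tumors below them. Kdm3a, a histone demethylase, was at 32.9 and 30.2 TPM with loratadine and 142 and 57.0 TPM with vehicle, where B1L stood above F5L. B3R had the lowest level of the 4 tumors for Bnip3, Adm, Ero1l and Vegfa, with F3R nearer to the vehicle tumors. The largest difference of the group was that of Car12, described above. Transcripts of the factors themselves overlapped between the groups, with Hif1a at 111 and 181 TPM against 82.7 and 138 TPM in vehicle tumors and Epas1 at 4.72 and 6.49 TPM against 3.92 and 5.02 TPM in vehicle tumors.

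Among 18 glycolytic genes, 14 did not overlap in the lower direction, against 14.9% of all genes, with 8 of them under an unadjusted p of 0.05, and the median was -0.65 (-0.94 in cage B and -0.35 in cage F). After median-of-ratios scaling the lower counts were 12 of 16 hypoxia genes and 15 of 18 glycolytic genes, against 23.3% of all genes. The most abundant transcripts of the pathway were among them. Gapdh was at 2983 and 3681 TPM with loratadine and 9523 and 5873 TPM with vehicle (-1.17 ± 0.29). Tpi1, triosephosphate isomerase, was at 784 and 1012 TPM with loratadine and 2515 and 1563 TPM with vehicle (-1.15 ± 0.29). Slc2a1, the glucose transporter GLUT1, was at 101 and 168 TPM with loratadine and 363 and 235 TPM with vehicle (-1.16 ± 0.31). For these 3 genes B1L was the highest tumor, and F5L was also above both loratadine tumors. Pfkl, the liver-type phosphofructokinase, was at 114 and 122 TPM with loratadine and 253 and 256 TPM with vehicle (-1.10 ± 0.28). The muscle and platelet forms of this enzyme had smaller differences, -0.10 ± 0.22 for Pfkm and -0.35 ± 0.24 for Pfkp. Ldha, lactate dehydrogenase A, was at 1086 and 1747 TPM with loratadine and 2116 and 1750.2 TPM with vehicle, and F3R lay just below the lower vehicle tumor. The 1 glycolytic gene with higher levels was Aldoc, the brain-type aldolase, at 6.90 and 25.6 TPM with loratadine and 2.51 and 1.94 TPM with vehicle (2.17 ± 0.80), while Aldoa, the major aldolase, was at 1640.1 and 1533 TPM with loratadine and 2582 and 2311 TPM with vehicle. Erythroid transcripts, which report blood in the sample, were lower too. Of 5 such genes, 4 did not overlap in the lower direction, against 14.9% of all genes. Their summed levels were 140 to 200 TPM in the loratadine tumors and 269 to 454 TPM in the vehicle tumors. In bulk tissue, fewer cells of a type and less transcript per cell cannot be told apart. The part of blood in the hypoxia and glycolysis values was not tested.

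The promoters of these genes were read to show where the hypoxia element stands. RefSeq promoters (GRCm38.p6, 250 bases before to 50 bases after the annotated start) were found for 14 of the 16 hypoxia genes and all 18 glycolytic genes. ACGTG on either strand was present in 10 of 14 and 13 of 18, against 21.8% of the 27025 genes of the table. Among members that were lower in both loratadine tumors, it was present in 6 of 10 hypoxia genes and 9 of 14 glycolytic genes. These are matches of letters and not measured binding. A pair of promoters is shown because both hold the palindrome CACGTG, in which the element reads on both strands, and both genes were lower with loratadine. Capitals mark the matches, and each sequence is the 250 bases before the start, 5′ to 3′ on the strand of the gene, placed by exact match on NCBIM37 at chr7:54100924-54101173 (plus strand) for Ldha and chr7:146101190-146101439 (minus strand) for Bnip3.
Ldha: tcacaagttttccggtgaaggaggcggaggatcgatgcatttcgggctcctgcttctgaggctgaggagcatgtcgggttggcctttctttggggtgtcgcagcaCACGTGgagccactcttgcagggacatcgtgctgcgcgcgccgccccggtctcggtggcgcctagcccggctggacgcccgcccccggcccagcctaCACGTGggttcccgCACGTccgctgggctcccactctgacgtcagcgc
Bnip3: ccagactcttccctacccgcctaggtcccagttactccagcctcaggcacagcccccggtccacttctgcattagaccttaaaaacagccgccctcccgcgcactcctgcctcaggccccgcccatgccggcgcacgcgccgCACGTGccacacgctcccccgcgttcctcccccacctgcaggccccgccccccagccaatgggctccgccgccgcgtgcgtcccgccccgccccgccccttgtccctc

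Genes of the amino acid response, which ATF4 induces when amino acids are short or mTORC1 is active, had lower levels as well. Of 20 such genes 19 were tested, and 10 did not overlap in the lower direction and 1 in the higher, against 14.9 and 33.0% of all genes. None passed the adjusted threshold in limma and 7 were under an unadjusted p of 0.05, all lower, with a median of -0.55 (-0.68 in cage B and -0.77 in cage F). After median-of-ratios scaling 11 were lower and 1 higher, against 23.3 and 23.5% of all genes. The mitochondrial one-carbon enzymes, which turn serine into formate, were among the lower genes with Asns. Mthfd2 was at 48.6 and 82.3 TPM with loratadine and 182 and 164 TPM with vehicle (-1.43 ± 0.29). Shmt2 was at 98.5 and 90.0 TPM with loratadine and 162 and 275 TPM with vehicle (-1.16 ± 0.24). Aldh1l2 was at 26.3 and 48.2 TPM with loratadine and 91.5 and 199.6 TPM with vehicle (-1.89 ± 0.46). All 3 were lower in both loratadine tumors than in both vehicle tumors. In the serine pathway that feeds them, Psph was at 52.3 and 64.9 TPM with loratadine and 89.6 and 137 TPM with vehicle, whereas Psat1 overlapped, at 124 and 258 TPM with loratadine and 119 and 158 TPM with vehicle. Chac1, which degrades glutathione, was at 18.6 and 17.4 TPM with loratadine and 28.5 and 72.6 TPM with vehicle. Ddit3, the stress factor CHOP, was at 163 and 201 TPM with loratadine and 324 and 360.0 TPM with vehicle. Both were lower without overlap. Atf4 itself was at 260.3 and 302 TPM with loratadine and 325 and 517 TPM with vehicle (-0.55 ± 0.30), and Atf5, a related factor, was higher at 183 and 169.5 TPM against 111 and 127 TPM in vehicle tumors. The amino acid transporters Slc7a5, Slc7a11, Slc3a2 and Slc7a1 all overlapped between the groups. With the adipocyte markers as a term in the model the median of these genes was -0.09, whereas that of hypoxia was -1.12 and that of glycolysis -0.49.

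ATF4 binds, together with C/EBP proteins, an element with the letters TGATGNAA. It was found on either strand in 7 of 18 promoters of the group that RefSeq holds, against 4.51% of the genes of the table. Of the 9 members with a promoter and lower levels in both loratadine tumors it was found in 2, Asns and Chac1, which are shown with the element in capitals. They were placed on NCBIM37 at chr6:7643210-7643459 (minus strand) for Asns and chr2:119176728-119176977 (plus strand) for Chac1, and the element starts 23 and 193 bases before the annotated start.
Asns: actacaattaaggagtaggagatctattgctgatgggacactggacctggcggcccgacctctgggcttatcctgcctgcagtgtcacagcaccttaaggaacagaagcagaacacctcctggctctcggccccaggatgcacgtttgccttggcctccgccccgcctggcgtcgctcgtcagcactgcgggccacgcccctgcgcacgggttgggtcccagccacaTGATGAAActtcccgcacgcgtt
Chac1: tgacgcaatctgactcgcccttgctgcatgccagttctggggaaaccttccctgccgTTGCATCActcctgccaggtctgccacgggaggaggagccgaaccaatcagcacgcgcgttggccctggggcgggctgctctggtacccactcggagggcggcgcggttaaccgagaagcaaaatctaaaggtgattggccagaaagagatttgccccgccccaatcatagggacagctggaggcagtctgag

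**Figure D3:**
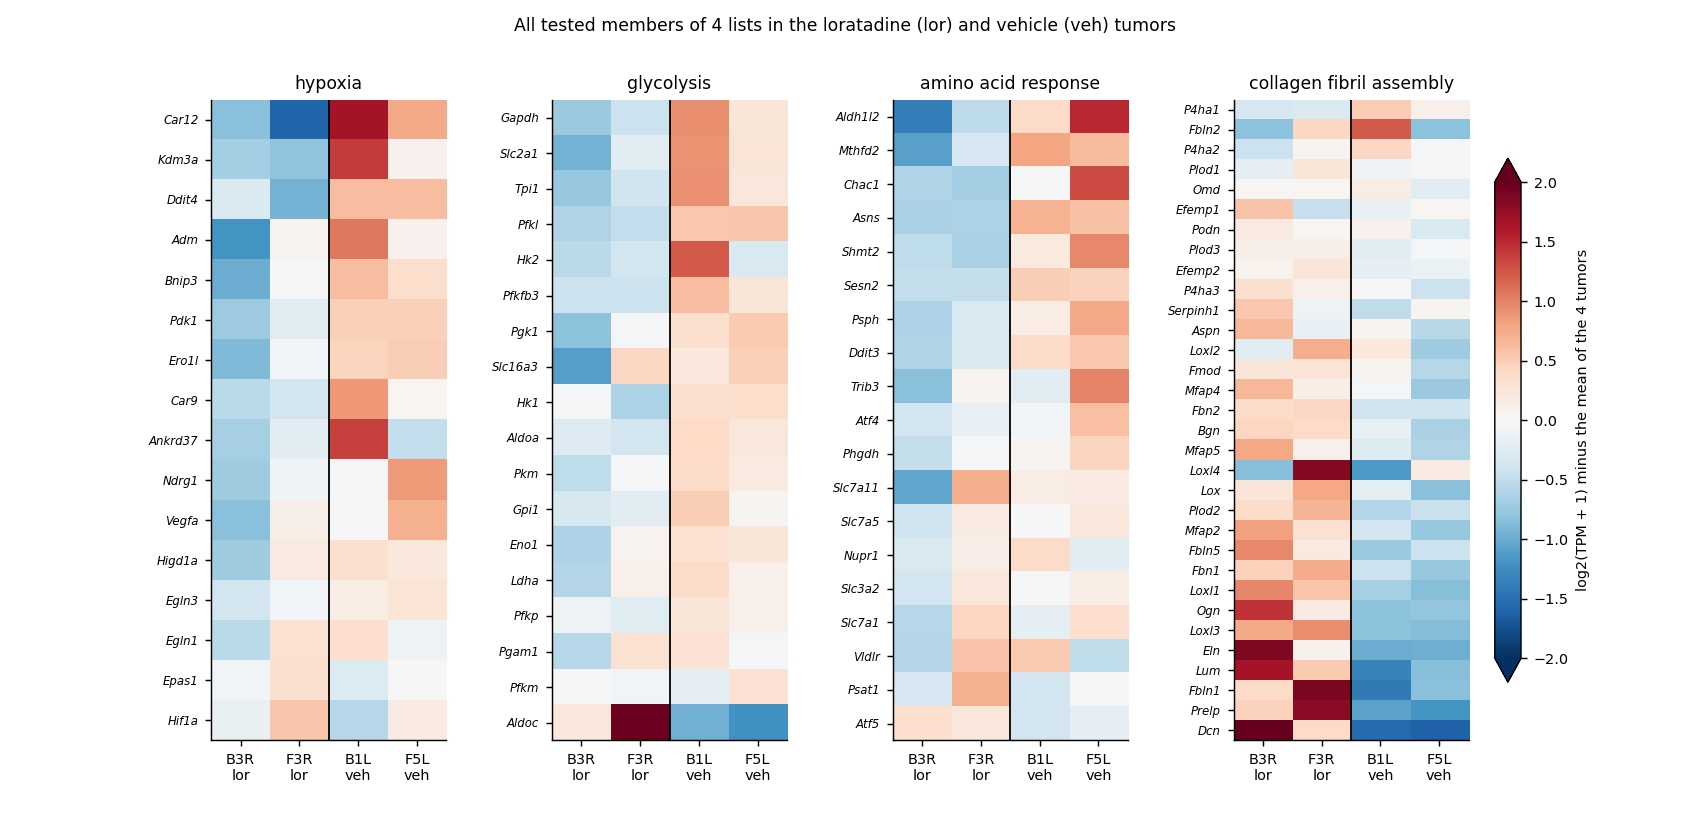
All tested members of 4 gene groups as log2(TPM + 1) minus the mean of the 4 tumors, with the 2 loratadine tumors on the left of each panel and the 2 vehicle tumors on the right. Blue marks levels below and red levels above that mean. In both loratadine tumors 11 of 16 hypoxia genes, 14 of 18 glycolytic genes and 10 of 19 amino acid response genes were lower. By contrast 21 of 32 genes of collagen fibril assembly were higher. Of all tested genes 14.9% were lower and 33.0% higher in this way.

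Extracellular matrix genes had higher levels with loratadine. Collagens form fibrils after secretion, and small proteoglycans, elastic-fiber proteins and lysyl oxidases space, cross-link and anchor them. Of 32 genes of fibril assembly that were tested of 33, 21 did not overlap in the higher direction and 1 in the lower, against 33.0 and 14.9% of all genes. The median was 0.80, with 0.71 in cage B and 0.91 in cage F, and 13 were under an unadjusted p of 0.05 with higher levels, although none passed the adjusted threshold in limma. Elastic-fiber genes contributed 9 of 11. Fbn1, fibrillin-1, was at 18.8 and 23.1 TPM with loratadine and 9.68 and 7.5 TPM with vehicle (1.20 ± 0.22). Neither loratadine tumor overlapped the vehicle range. Eln, elastin, was at 45.2 and 12.4 TPM with loratadine and 5.32 and 5.42 TPM with vehicle (1.97 ± 0.63), with B3R far above F3R. Lysyl oxidases cross-link collagen and elastin. Among them, Loxl1 was at 45.9 and 34.0 TPM with loratadine and 14 and 12.2 TPM with vehicle (1.53 ± 0.31). Loxl3 was at 21.6 and 24.3 TPM with loratadine and 6.52 and 6.31 TPM with vehicle (1.69 ± 0.39). Both loratadine tumors were above both vehicle tumors for these enzymes. Of the proteoglycans, Lum, lumican, was at 43.8 and 19.5 TPM with loratadine and 4.66 and 6.85 TPM with vehicle. Dcn, decorin, was at 277 and 53.2 TPM with loratadine and 13.3 and 12.5 TPM with vehicle. The 1 member that was lower, P4ha1, a prolyl hydroxylase subunit, is also a known hypoxia target and was at 102 and 106 TPM with loratadine and 184 and 139 TPM with vehicle.

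Collagen chains were divided by type. Of 23 chains, 14 did not overlap in the higher direction and 3 in the lower, against 33.0 and 14.9% of all genes, with a median of 0.49 (0.31 in cage B and 0.47 in cage F). Of 7 fibrillar chains 5 were higher and 1, Col5a3, was lower, at 19.8 and 10.3 TPM with loratadine and 29.2 and 22.0 TPM with vehicle. Those with higher levels were led by Col3a1 at 423 and 302 TPM with loratadine and 145 and 117 TPM with vehicle (1.45 ± 0.28). Col1a1 was at 261 and 185 TPM with loratadine and 125 and 84.2 TPM with vehicle (1.09 ± 0.35). Basement membrane chains had a median of 0.10, near that of all genes, and the abundant pair Col4a1 and Col4a2 overlapped. Col7a1, the anchoring fibril collagen of epithelial basement membranes, was lower, at 36.9 and 29.1 TPM with loratadine and 52.5 and 68.8 TPM with vehicle (-0.86 ± 0.28), as was Col18a1, the source of endostatin, at 218 and 124 TPM with loratadine and 412 and 333 TPM with vehicle. Proteases and their inhibitors had a median of 0.68, and 9 of 16 did not overlap in the higher direction, against 33.0% of all genes. Mmp2, gelatinase A, was at 126 and 66.5 TPM with loratadine and 12.9 and 21.3 TPM with vehicle (2.4 ± 0.53). Adam12 was at 11.7 and 18.7 TPM with loratadine and 4.07 and 5.67 TPM with vehicle (1.45 ± 0.31). The macrophage elastase Mmp12 and the collagenase Mmp13 overlapped between the groups. Fibroblast and pericyte markers were higher without overlap in 11 of 14, against 33.0% of all genes, with a median of 0.82. Their summed levels were 707 to 857 TPM in the loratadine tumors and 409 to 470 TPM in the vehicle tumors. Fap, a protease of activated fibroblasts, was at 4.46 and 3.62 TPM with loratadine and 1.62 and 1.67 TPM with vehicle (0.92 ± 0.27). The part of fibroblasts in the matrix values was not tested.

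Epithelial junction genes were also higher in the loratadine tumors. They encode the proteins that seal and hold together neighbouring epithelial cells. Of 30 tested members of 35, 20 did not overlap in the higher direction and 1 in the lower, Dsp, against 33.0 and 14.9% of all genes. After median-of-ratios scaling these were 17 and 2, against 23.5 and 23.3%. The median was 0.93 (0.59 in cage B and 1.34 in cage F). All 11 tested genes of the tight junction were in the higher group, against none of 5 keratins. Cldn1 was at 84.4 and 165 TPM with loratadine and 54.4 and 39.4 TPM with vehicle (1.33 ± 0.35). Epcam, an adhesion molecule of epithelia, was at 26.0 and 62.9 TPM with loratadine and 3.18 and 0.349 TPM with vehicle (4.13 ± 1.28, limma adjusted p = 0.34). Cdh1, E-cadherin, was at 116 and 210.1 TPM with loratadine and 73.4 and 83.6 TPM with vehicle (0.99 ± 0.37). The splicing factor of epithelial isoforms Esrp2 was at 5.19 and 4.95 TPM with loratadine and 1.32 and 1.12 TPM with vehicle (1.45 ± 0.46). All these genes were higher in both loratadine tumors. For Epcam and many others F3R had the highest and F5L the lowest level of the 4 tumors, so the difference was 5.57 in cage F and 2.69 in cage B for Epcam. Keratin 8 and 19 overlapped, with Krt8 at 477 and 713 TPM against 604 and 1108 TPM in vehicle tumors and Krt19 at 97.2 and 426 TPM against 463 and 234 TPM in vehicle tumors. All 3 tested mucins were higher, Muc1 at 57.6 and 139.8 TPM with loratadine and 8.14 and 3.88 TPM with vehicle (3.77 ± 1.85), Muc4 and Muc20. Both genes also varied between the rapamycin tumors D1L and G3L, with Epcam at 3.95 and 86.1 TPM and Muc1 at 2.16 and 328 TPM.

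Renal genes split. Emx2, a transcription factor of the embryonic kidney, was at 57.4 and 54.7 TPM with loratadine and 27.1 and 38.6 TPM with vehicle (0.77 ± 0.21), and Umod, uromodulin of the thick ascending limb, was at 19.2 and 38.2 TPM with loratadine and 0.412 and 0.0416 TPM with vehicle (4.54 ± 1.75). Fxyd2, the gamma subunit of the sodium pump, was at 127 and 47.6 TPM with loratadine and 212 and 687 TPM with vehicle (-2.28 ± 0.73), and Pax8 was lower in both loratadine tumors as well. Umod also varied between the rapamycin tumors D1L and G3L, at 0.666 and 144 TPM. Across the 14 tested renal genes of 27 the median was 0.23.

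Of 18 tested mesenchymal genes of 19, 7 did not overlap in the higher direction and 3 in the lower, near the 33.0 and 14.9% of all genes, with a median of 0.25. Vim, vimentin, was at 2703 and 2982 TPM with loratadine and 4416 and 4608 TPM with vehicle (-0.67 ± 0.27, limma adjusted p = 0.4). Twist1, a transcription factor of mesenchyme, was at 4.69 and 3.84 TPM with loratadine and 1.02 and 1.24 TPM with vehicle (1.30 ± 0.27, limma adjusted p = 0.26). Fn1, fibronectin, was at 1828 and 2711 TPM with loratadine and 1291 and 1335 TPM with vehicle (0.76 ± 0.58). Vim was thus lower, and Twist1 and Fn1 higher, in both loratadine tumors. Snai1, a repressor of E-cadherin, overlapped, at 7.93 and 5.24 TPM with loratadine and 4.40 and 5.83 TPM with vehicle. Itga5, the fibronectin receptor subunit, was lower at 57.5 and 44.3 TPM against 75.7 and 108 TPM in vehicle tumors (-0.83 ± 0.27). Smooth muscle contractile genes had a median of -0.07 that turned between the cages (-0.52 in cage B and 0.35 in cage F), and Acta2 was at 92.0 and 92.7 TPM with loratadine and 76.4 and 98.1 TPM with vehicle. Of the LAM markers, Ctsk, cathepsin K, was at 38.2 and 22.1 TPM with loratadine and 17.6 and 16.3 TPM with vehicle (0.74 ± 0.26), while Gpnmb and Vegfd overlapped and Pmel stayed below 1.1 TPM in all 4 tumors.

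**Figure D4:**
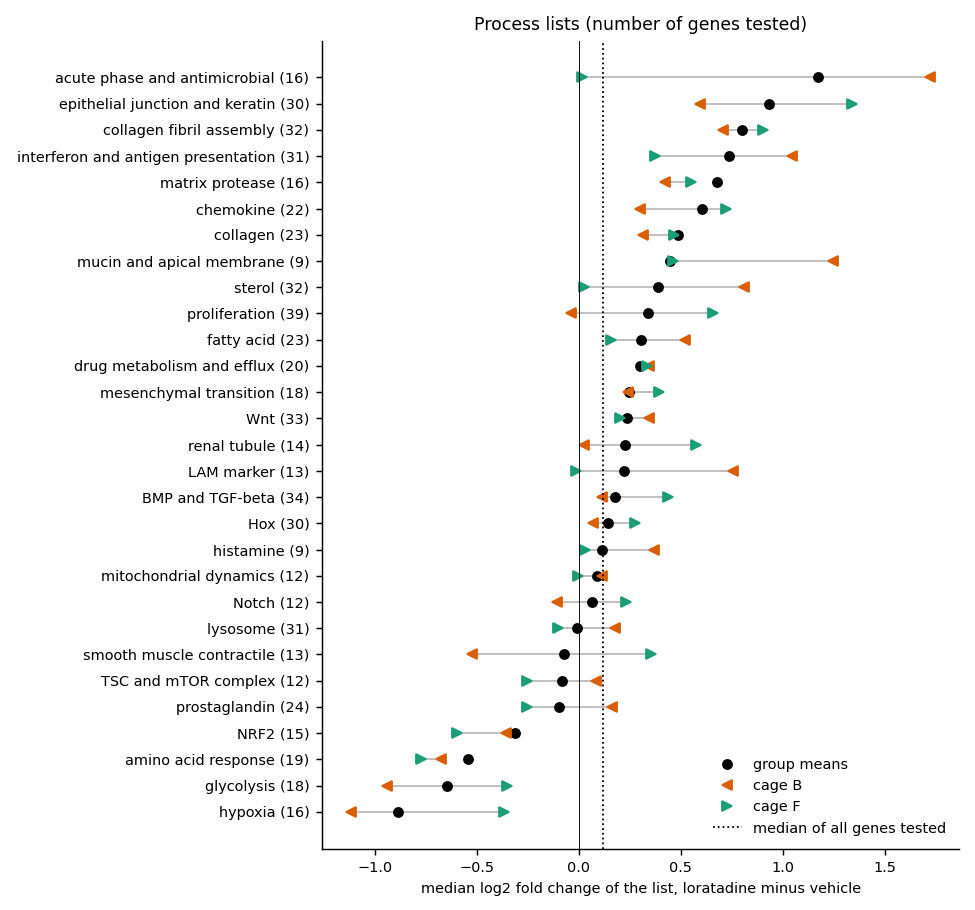
Median log2 fold change, loratadine minus vehicle, of 29 process lists with the number of tested genes in brackets, as the difference of the group means (black) and within cage B and cage F (triangles), with a dotted line at the median of all genes (0.12). The hypoxia (-0.89), glycolysis (-0.65) and amino acid response (-0.55) lists lie lowest, and in the acute phase list (1.17) the 2 cages lie far apart.

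Sterol genes had higher levels with loratadine in cage B. They are switched on by SREBP2 when membrane cholesterol is low, and Insig1 feeds back on this control. Of 32 genes, 14 did not overlap in the higher direction and 3 in the lower, against 33.0 and 14.9% of all genes. The median was 0.39, with 0.81 in cage B and 0.02 in cage F, where all genes had 0.15 and 0.08. Among the synthesis enzymes 10 of 19 were higher and none lower. Insig1 was at 196 and 161 TPM with loratadine and 63.4 and 88.2 TPM with vehicle (1.24 ± 0.34). Mvd, which makes isopentenyl diphosphate, was at 41.1 and 26.4 TPM with loratadine and 15.2 and 18.2 TPM with vehicle (0.95 ± 0.31). Stard4, a carrier of cholesterol, was at 39.9 and 48.5 TPM with loratadine and 27.9 and 29.8 TPM with vehicle (0.59 ± 0.21). For these genes the vehicle tumors stayed below both loratadine tumors. In fatty acid metabolism 13 of 23 genes did not overlap in the higher direction, against 33.0% of all genes, and 2 of them were under an unadjusted p of 0.05. Fads2, a desaturase, was at 98.2 and 126 TPM with loratadine and 51.1 and 69.3 TPM with vehicle (0.89 ± 0.20). Pdk4, the starvation-induced pyruvate dehydrogenase kinase, was the 1 member that was lower, at 7.82 and 5.61 TPM with loratadine and 21.3 and 15.3 TPM with vehicle (-1.32 ± 0.37).

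NRF2 targets, which handle electrophiles and oxidants, were lower in 8 of 15 and higher in 1, against 14.9 and 33.0% of all genes, with a median of -0.32 (-0.36 in cage B and -0.60 in cage F). Besides Gsta4, Gclc, the catalytic subunit for glutathione synthesis, was at 20.7 and 31.5 TPM with loratadine and 52.9 and 50.5 TPM with vehicle (-0.99 ± 0.29). Hmox1, heme oxygenase, was at 317 and 331 TPM with loratadine and 860.0 and 615 TPM with vehicle (-1.16 ± 0.57). Nqo1, a commonly used NRF2 readout, overlapped at 10.8 and 22.2 TPM against 6.70 and 14.1 TPM in vehicle tumors, and Gstm1 was higher. Drug metabolism and efflux genes were divided by function. Of the cytochrome P450 genes, 6 of 9 did not overlap in the higher direction and 1 in the lower, against 33.0 and 14.9% of all genes. Among conjugation and efflux genes 3 of 11 were higher, a smaller share than among all genes, and 4 lower. The drug efflux pumps Abcg2, Abcb1a and Abcb1b were lower in both loratadine tumors. Abcg2 was at 21.1 and 13 TPM with loratadine and 273 and 34.1 TPM with vehicle (-2.48 ± 0.99), where B1L was far above the others. Abcb1a, a P-glycoprotein gene, was at 2.81 and 1.61 TPM with loratadine and 26.9 and 11.3 TPM with vehicle (-2.56 ± 0.83), and its close copy Abcb1b was at 17.3 and 3.98 TPM with loratadine and 22.7 and 54.8 TPM with vehicle. Reads of this pair may have been divided between them. Of the cytochromes, Cyp2j6 was at 10.7 and 11 TPM with loratadine and 3.74 and 3.46 TPM with vehicle (1.37 ± 0.33), and Cyp2e1, which adipocytes also express, at 16.8 and 8.61 TPM with loratadine and 0.119 and 0.149 TPM with vehicle. Cyp4b1 was lower at 2.86 and 3.89 TPM against 19.4 and 9.74 TPM in vehicle tumors (-1.77 ± 0.42).

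Histamine genes were mostly at low levels in these tumors. Hrh1, the receptor that loratadine blocks, was at 0.598 and 0.624 TPM with loratadine and at 0.386 and 0.535 TPM with vehicle, and it did not pass the filter on low values, as 7 of 16 genes of the group did not. Hdc, which makes histamine, was at 0.955 and 1.56 TPM with loratadine and 2.34 and 1.11 TPM with vehicle, and Hnmt, which methylates it, at 1.96 and 0.984 TPM with loratadine and 0.571 and 1.55 TPM with vehicle, so both overlapped. Aoc1, the diamine oxidase, was at 1.33 and 0.0813 TPM with loratadine and 1.12 and 0.0598 TPM with vehicle, against 39.6 and 39.4 TPM with rapamycin alone. Of 9 tested genes 2 did not overlap, both in the higher direction, a smaller share than the 33.0% of all genes. Maob was at 8.12 and 31.9 TPM with loratadine and 0.267 and 0.312 TPM with vehicle (3.75 ± 1.12, limma adjusted p = 0.34). Aldh7a1 was at 35.8 and 57.4 TPM with loratadine and 19.7 and 26.1 TPM with vehicle (0.97 ± 0.32). The loratadine levels of both enzymes were above the vehicle levels, and Maob differed between B3R and F3R. Maob also varied between the rapamycin tumors D1L and G3L, at 0.442 and 17.7 TPM. Maoa overlapped, at 59.5 and 64.3 TPM with loratadine and 55.3 and 179 TPM with vehicle, where F5L stood far above B1L. Mast cell markers, which include Hdc, had a median of 0.50 that turned between cages (1.0 in cage B and -0.28 in cage F). Of 10 markers 2 did not overlap in the higher direction and 1 in the lower, against 33.0 and 14.9% of all genes. That 1 was Tpsab1, a tryptase, at 3.02 and 1.76 TPM with loratadine and 12.9 and 9.0 TPM with vehicle (-1.83 ± 0.76). Cpa3, a mast cell protease, was at 11.3 and 8.98 TPM with loratadine and 1.45 and 12.6 TPM with vehicle.

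Prostaglandins are made from arachidonic acid by cyclooxygenases and terminal synthases. Of 24 tested genes of 30, 4 did not overlap in the higher direction, Ptgds among them, and 6 in the lower, against 33.0 and 14.9% of all genes, with a median of -0.10. Ptgs2, the inducible cyclooxygenase, was at 3.35 and 3.77 TPM with loratadine and 6.06 and 6.36 TPM with vehicle (-0.66 ± 0.26), while the constitutive Ptgs1 overlapped at 112 and 174 TPM against 147 and 139 TPM in vehicle tumors. Slco2a1, the prostaglandin transporter, was at 73.0 and 69.7 TPM with loratadine and 146 and 99.2 TPM with vehicle (-0.75 ± 0.22). Both genes were lower in both loratadine tumors. Hpgds, the hematopoietic prostaglandin D synthase, overlapped at 10.2 and 9.45 TPM against 4.85 and 17.6 TPM in vehicle tumors. Transcripts of the prostaglandin D receptors Ptgdr and Ptgdr2 stayed below 0.15 TPM in every tumor.

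Developmental genes differed in parts. In the Wnt group ligands (6 of 10) and secreted inhibitors (4 of 6) did not overlap in the higher direction, with 1 of 8 targets, against 33.0% of all genes. Sfrp2 was at 12.2 and 19.6 TPM with loratadine and 3.70 and 1.59 TPM with vehicle (2.24 ± 0.40). Dkk3 was at 16.6 and 13.3 TPM with loratadine and 5.07 and 2.53 TPM with vehicle (1.78 ± 0.36), and Wnt11 was at 3.19 and 2.43 TPM with loratadine and 0.474 and 0.458 TPM with vehicle (1.37 ± 0.27). Dkk3 and Sfrp2 encode secreted Wnt antagonists or modulators and Wnt11 a ligand. Axin2, a target of β-catenin, overlapped at 3.24 and 1.66 TPM against 1.54 and 7.07 TPM in vehicle tumors. In the BMP and TGF-β group, Tgfb3 was at 19.3 and 20.4 TPM with loratadine and 8.83 and 8.09 TPM with vehicle (1.14 ± 0.18), while Tgfb1 overlapped. Smad6, an inhibitor of BMP signals, was at 5.72 and 5.30 TPM with loratadine and 2.05 and 2.97 TPM with vehicle (0.90 ± 0.25). Hox genes, which set position along the body axis, were described by cluster. In the HoxB cluster 7 of 10 genes and in the HoxC cluster 5 of 6 tested genes did not overlap in the higher direction, with none of 10 HoxA and 1 of 4 HoxD genes, against 33.0% of all genes. Hoxb9 was at 89.8 and 111 TPM with loratadine and 58.2 and 47.5 TPM with vehicle (0.91 ± 0.18). Hoxa11 was lower at 19.2 and 13.8 TPM against 27.4 and 26.7 TPM in vehicle tumors. A difference between the clusters was not tested. In the Notch group 10 of 12 genes overlapped, against 7858 of all 15095 genes. Jag1 was at 9.54 and 8.24 TPM with loratadine and 49.2 and 13.6 TPM with vehicle.

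Immune genes were described by function. Antigen presentation genes did not overlap in the higher direction in 7 of 13, against 33.0% of all genes. Of 18 interferon-response genes 6 were higher and 2 lower, a higher share equal to that of all genes. Psmb8, a subunit of the immunoproteasome, was at 148 and 152 TPM with loratadine and 24.0 and 63.3 TPM with vehicle (1.91 ± 0.69). H2-K1, a class I chain, was at 2272 and 2303 TPM with loratadine and 1031 and 1228 TPM with vehicle, and the class II genes Cd74 and H2-Aa overlapped, with B3R the highest tumor. Usp18 was lower at 19.4 and 29.1 TPM against 48.9 and 36.7 TPM in vehicle tumors. Of 11 tested T cell markers, 9 were higher and 1, Lck, lower, against 33.0 and 14.9% of all genes. Their summed levels were 24.7 to 40.2 TPM in the loratadine tumors and 12.9 to 16.2 TPM in the vehicle tumors. Cd3g was at 6.88 and 4.61 TPM with loratadine and 1.14 and 0.645 TPM with vehicle (1.83 ± 0.54), and Cd8a at 3.39 and 1.67 TPM with loratadine and 0.279 and 0.391 TPM with vehicle (1.36 ± 0.47). Chemokines that did not overlap were all higher, 10 of 22, against 33.0% of all genes. Chemokines guide leukocytes. Cxcl13, which attracts B cells, was at 2.35 and 1.96 TPM with loratadine and 0.0954 and 0.0519 TPM with vehicle. Among the other tumors it reached 1 TPM in C1R alone, so it passed the filter on low values only through the group where it is high. Cxcl12 was at 6.4 and 10.5 TPM with loratadine and 3.50 and 1.03 TPM with vehicle (1.61 ± 0.44). Macrophage markers overlapped in 12 of 14, against 7858 of all 15095 genes. Csf1r was at 67.9 and 61.7 TPM with loratadine and 37.5 and 96.8 TPM with vehicle. Among acute-phase and antimicrobial proteins 8 of 16 were higher, against 33.0% of all genes, and the median differed widely between cages (1.72 in cage B and 0.01 in cage F). Lcn2, the siderophore-binding lipocalin, was at 462 and 868 TPM with loratadine and 105 and 49.5 TPM with vehicle (3.12 ± 0.93). Ltf, lactoferrin, was at 167 and 299.5 TPM with loratadine and 8.49 and 1.67 TPM with vehicle, with 3.10 and 2716 TPM in D1L and G3L.

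Proliferation genes overlapped for the most part. Of 39 genes, 10 did not overlap in the higher direction and 1 in the lower. Both shares were below the 33.0 and 14.9% of all genes, and no member was under an unadjusted p of 0.05. The median was -0.04 in cage B and 0.66 in cage F, and F3R had the highest level of many of these genes. Mki67, which encodes Ki67, was at 29.7 and 54.6 TPM with loratadine and 24.3 and 31.7 TPM with vehicle (0.52 ± 0.62). After median-of-ratios scaling the counts were 3 in each direction, against 23.5 and 23.3% of all genes. Components of the TSC and mTOR complexes had a median of -0.08, and Mtor was at 15.2 and 11.9 TPM with loratadine and 16.0 and 17.4 TPM with vehicle (-0.29 ± 0.26). Rps6 overlapped at 915 and 1202 TPM against 989.6 and 913 TPM in vehicle tumors. Among mitochondrial dynamics genes, Dnm1l, which encodes the fission protein DRP1, was at 60.2 and 65.1 TPM with loratadine and 50.5 and 59.3 TPM with vehicle (0.19 ± 0.17). Fis1, another fission protein, was at 205 and 209.9 TPM with loratadine and 133 and 124 TPM with vehicle (0.69 ± 0.22), and the fusion protein Mfn2 was lower at 45.7 and 38.2 TPM against 59.2 and 58.2 TPM in vehicle tumors (-0.48 ± 0.16). Mtfr1, of the fission group, was lower at 28.6 and 28.3 TPM against 40.4 and 38.7 TPM in vehicle tumors (-0.46 ± 0.17). Of 7 tested fission genes 4 did not overlap in the higher direction and 2 in the lower. Of 5 fusion genes these were 0 and 1, against 33.0 and 14.9% of all genes. Lysosomal genes lay near 0 in the median (-0.01). Of 31, 6 did not overlap in the higher direction and 4 in the lower as deposited, against 33.0 and 14.9% of all genes. Once libraries were scaled by the median of ratios, 5 were higher and 13 lower, against 23.5 and 23.3%. Ctsl, cathepsin L, was lower at 1431 and 728 TPM against 1933 and 2302 TPM in vehicle tumors (-1.05 ± 0.31).

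Adipocyte markers differed with the treatment too. Of 14 markers, 11 did not overlap in the higher direction, against 33.0% of all genes, and 1 in the lower, Pparg. Their summed level was 632 to 993 TPM in the loratadine tumors and 141 to 142 TPM in the vehicle tumors. Adipoq, adiponectin, was at 28.5 and 18.2 TPM with loratadine and 0.133 and 0.0452 TPM with vehicle. Lep, leptin, was listed at 0 in both vehicle tumors, and Retn, resistin, in B1L. Among the other tumors they were high in A3L and D1L and low in C1R and G3L, with Adipoq at 25.8 and 0.0942 TPM in A3L and C1R and 9.79 and 0.309 TPM in D1L and G3L. Some named genes had the same order of tumors, and the part of fat tissue in them was not tested. Thrsp, a lipogenic gene, was at 33.2 and 7.26 TPM with loratadine and 0.274 and 0.325 TPM with vehicle, with 39.5 and 0.345 TPM in A3L and C1R. Hp was at 28.9 and 5.21 TPM in A3L and C1R and at 20.3 and 6.04 TPM in D1L and G3L. Ptgds was at 88.8 and 50.5 TPM in A3L and C1R and 47.8 and 66.0 TPM in D1L and G3L. All of these tumors received rapamycin, and rapamycin alone against vehicle had a log2 fold change of 3.65 in Ptgds. Between the loratadine and vehicle tumors, Ptgds and the adipocyte markers were both higher with loratadine. The part of fat tissue in the Ptgds difference was not tested. With the marker mean as a term in limma no gene passed, while 1811 were under an unadjusted p of 0.05, and Ptgds had a log2 fold change of 3.54 ± 0.49 (adjusted p = 0.33). In that fit the median of collagen fibril assembly was 0.93 and that of the epithelial genes 1.23, against 0.05 for all genes. The median of the Hox genes was -0.33 with the term and 0.14 without it. For fatty acid metabolism these were 0.04 and 0.30. Endothelial markers had a median of 0.10, near that of all genes.

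**Figure D5:**
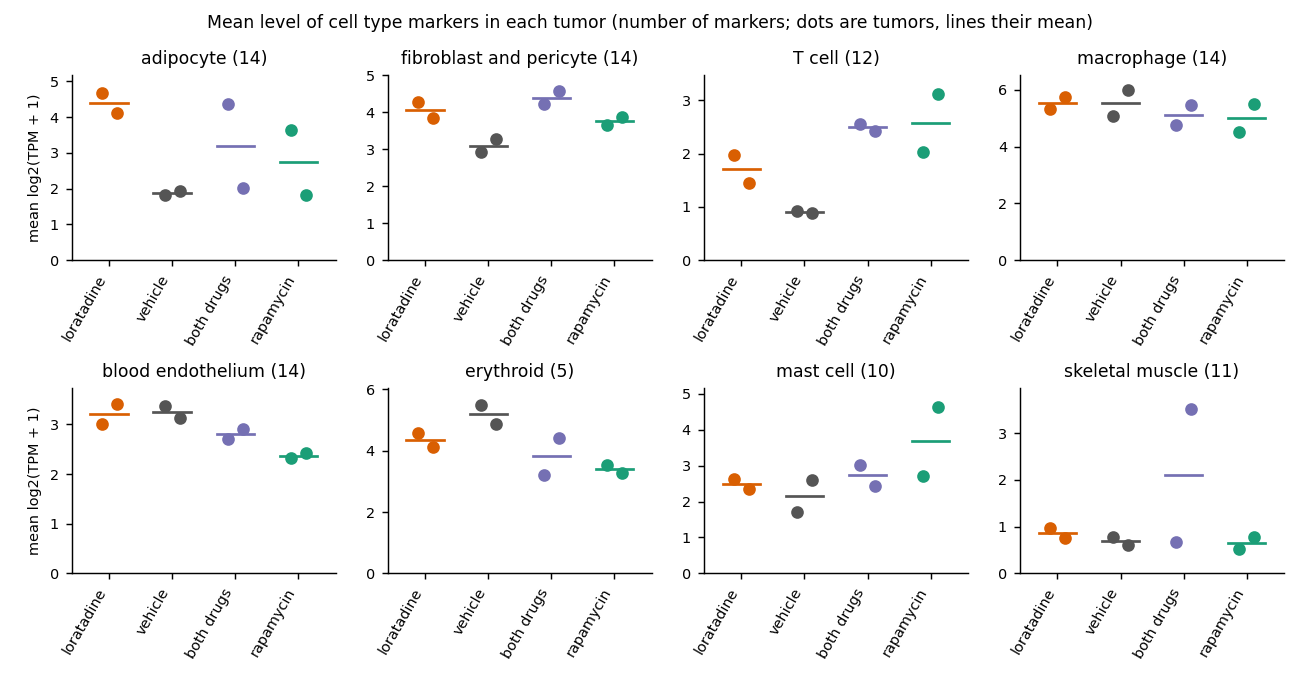
Mean log2(TPM + 1) of 8 lists of cell type markers in each tumor, with the number of markers in brackets, a dot per tumor and a line at the mean of the treatment. Adipocyte, fibroblast and T cell markers lie higher in both loratadine tumors than in both vehicle tumors, erythroid markers lower, and macrophage and endothelial markers overlap.

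Finally, the loratadine difference was set against the one measured in the presence of rapamycin, both drugs minus rapamycin. The interaction passed the adjusted threshold in limma for 1 of 15095 genes (0.00662%), and 719 genes (4.76%) were under an unadjusted p of 0.05. The 1 gene, Gm49450, was at 0 in all 6 tumors that received any drug, so its interaction repeats the difference between loratadine and vehicle. For Ptgds the log2 difference was 0.25 ± 0.32 between both drugs and rapamycin and 3.87 ± 0.32 between loratadine and vehicle (adjusted p of the interaction of 0.25 in limma). For Cth these differences were 0.56 ± 0.46 and -3.94 ± 0.46 (adjusted p of the interaction of 0.35 in limma). Hypoxia genes had a median of -0.03 between both drugs and rapamycin, glycolytic genes -0.12 and amino acid response genes -0.01, whereas collagen fibril assembly had 0.41. The rapamycin tumors had their own levels of these genes. Rapamycin alone against vehicle had medians of -1.72 for hypoxia, -1.57 for glycolytic and -1.45 for amino acid response genes. For collagen fibril assembly that median was 0.52. Asns was at 33.5 and 39.3 TPM with both drugs and 33.8 and 31.6 TPM with rapamycin alone, and Gsta4 at 23.4 and 17.6 TPM with both drugs and 42.1 and 35.6 TPM with rapamycin alone. Nrep was at 337 and 236 TPM with both drugs and 183 and 305 TPM with rapamycin alone, and Mgp at 205 and 338 TPM with both drugs and 154 and 163 TPM with rapamycin alone. For Nrep and Mgp all 6 tumors that received any drug were above both vehicle tumors, and for Asns and Gsta4 all 6 were below them.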

How the data were processed

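Total RNA of 8 tumors was sequenced, 2 per treatment. The authors deposited TPM values per gene and no read counts, so read depth and counting error are unknown. The methods of the study name Kallisto, tximport and DESeq2, whereas STAR 2.4.0f1, SAMtools 0.1.18 and bedtools stand in the submitters' processing notes, and which of them gave the TPM values is not settled. Genes of at least 1 TPM in at least 2 libraries (15095 of 35539) were tested as log2(TPM + 1) in limma 3.58.1 (R 4.3.3, intensity trend, Benjamini-Hochberg adjustment) with 4 group means and 4 residual degrees of freedom. Plots used Python 3.11.15 with matplotlib 3.10.9. DESeq2 was not run, since it needs counts. The members and the 45 gene lists were chosen with earlier results of these data known. Named genes were those past an adjusted p of 0.05 and 12 annotated genes per direction. These 12 had the smallest p among genes with groups that did not overlap. They were also at least 1 log2 unit apart in each cage, with at least 5 TPM on average in the higher group. The genes the study names for these tumors were added, with up to 5 members of each list with the smallest p. Other members are named to complete a comparison, a choice made after seeing their values. Tumors of the same cage were paired by the cage letter of their code, and their deviations from the group means had a correlation of -0.018. This is a single value, since with 2 tumors per group the deviations in cage F mirror those in cage B. By its code each tumor came from another mouse. On simulated data for loratadine against vehicle with 200 of 15095 genes changed, 0 were recovered at a log2 change of 1, 177 at 2 and 196 at 3. False calls numbered 0, 9 and 8. The changed genes were drawn only from those whose mean log2(TPM + 1) matched at least 5 TPM. The noise held no counting error, so recovery at lower TPM is not known. Alternatives varied the pseudocount, filter, scaling, variance model, samples, cage block and a term for adipocyte markers, and left out each library in turn.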

Additional observations from a re-analysis of the deposited data

Results flagged for a closer look

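The difference between loratadine and vehicle in Gm49450 differed from that between both drugs and rapamycin, with an adjusted p of the interaction of 0.013 in limma. This predicted gene was listed at 0 in all 6 tumors that received any drug, against 55.1 and 77.3 TPM in the vehicle tumors, so the contrast in the presence of rapamycin is 0 by construction and the interaction repeats the difference between loratadine and vehicle. The gene passed the filter on low values only through the vehicle tumors. The call was lost with a pseudocount of 0.1, with a filter on a mean of at least 5 TPM, with adipocyte markers as a term, and when any 1 library was left out.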

How the results depend on the processing

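The count of genes past the threshold in limma (3) was 10 with no filter, of which 2 were shared, 5 with array weights, 8 with only the 2 groups and 12 at an adjusted p of 0.1. It was 0 with the cage as replicate block (1845 at an unadjusted p of 0.05), 0 with adipocyte markers as a term (1811) and 0 without predicted genes and pseudogenes (1655), the last with fewer genes tested. Leaving out 1 library gave 0 to 6 genes, with 0 without B1L or F5L (1109 and 1687 at an unadjusted p of 0.05). The interaction count (1) was 9 with no filter and 0 with a pseudocount of 0.1, a mean of at least 5 TPM, adipocyte markers as a term or predicted genes left out, and 0 to 0 when 1 library was left out. The share of genes not overlapping in the lower direction (14.9%) was 23.3% after median-of-ratios scaling. Ptgds lay between 3.54 and 4.17 on the log2 scale and lost its call in 10 of 23 alternatives. All 26 genes past the threshold or with the smallest p kept their direction in every alternative run, and 175 of the 218 other named genes did. The cause of these shifts was not tested. With 2 tumors per group, 1 side of the body per group and no depth, a log2 change of 1 was not recovered on simulated data, and low TPM values cannot be given a counting error.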

Other observations

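Several genes were at 0.1 TPM or less in 1 group and at 5 TPM or more in the other. Mup19, a major urinary protein of liver that belongs to a family of near-identical copies, was at 47.1 and 16.3 TPM in the loratadine tumors and listed at 0 in both vehicle tumors. It was at 32.8 and 0 TPM in A3L and C1R and at 8.92 and 0 TPM in D1L and G3L, the same order of tumors as the adipocyte markers. The predicted gene Gm21320 was at 205.8 and 49.9 TPM with loratadine and listed at 0 in both vehicle tumors, and Gm15710 was at 6.19 and 6.15 TPM with loratadine and listed at 0 in both vehicle tumors. In the opposite direction, Gm9761 was listed at 0 in both loratadine tumors and at 11.4 and 9.33 TPM in the vehicle tumors. Gm13772 was at most 0.0002144 TPM in the loratadine tumors and at 21.7 and 9.30 TPM in the vehicle tumors. Gm9761 and Gm13772 passed the filter on low values only through the vehicle tumors, where they are high. None of the genes in this paragraph so far passed an adjusted p of 0.05 in limma, and together with Gm49450 they are the 6 genes that met this rule.

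Markers of other cells gave smaller or mixed differences. Schwann cell and nerve markers had a median log2 fold change of 0.61, with 3 of 6 higher in both loratadine tumors. NK cell markers had a median of 0.42, with 3 of 6 higher. These shares of 3 in 6 stand against 33.0% of all genes. Neutrophil markers had a median of -0.29 that was -0.62 in cage B and 0.54 in cage F. Of the skeletal muscle markers, Ckm was at 26.2 TPM in C1R, a tumor of both drugs, and at or below 0.704 TPM in the loratadine and vehicle tumors.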
